A study of Mus musculus with 6 samples.

Results

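CAD cells carrying an empty plasmid were profiled on 3 Affymetrix mouse expression arrays, which are 3 of the 6 arrays of a study of the microRNA miR-124a-2. CAD is a mouse cell line that the labels call a neuroblastoma, and it was grown in DMEM with 10% fetal bovine serum or Fetaclone III and 1% penicillin and streptomycin. The cells received the RI vector without an insert, and the 3 arrays are labelled biological replicates 1 to 3. The other 3 arrays, of cells given the plasmid that expresses miR-124a-2, were not used here. The arrays were chosen by their label alone, and the question is what this line, a single cell line and so a single genotype, contains when given the empty vector. Every statement below is therefore about the order of genes within these cells, and no treatment was compared.

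The name CAD stands for Cath.a-differentiated. The line is a variant of Cath.a, a catecholamine-producing line from a brainstem tumour of a mouse that carried a viral oncogene under the promoter of the tyrosine hydroxylase gene. CAD cells divide in serum and extend long processes when serum is withdrawn, and they are used as a model of catecholaminergic neurons. In such neurons tyrosine is turned into L-DOPA by Th, L-DOPA into dopamine by Ddc and dopamine into noradrenaline by Dbh, an enzyme of the vesicle interior. Monoamines are loaded into vesicles by a vesicular transporter, released together with granins and peptides, taken back through a plasma membrane transporter and broken down by monoamine oxidase. The cells studied here were kept in serum.

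Each value is a log2 signal made with RMA (robust multi-array average, which corrects background, equalizes the distributions of arrays and summarizes the probes of a probe set), and means are given ± SD over the 3 arrays (n = 3 throughout). A gene was represented by the brightest of its probe sets that carry exactly 1 gene in the platform's annotation, which gave 18194 genes from 34958 of 45101 probe sets. A signal depends on how well its probes bind as well as on the amount of RNA, and it is not scaled to transcript length. The order of genes below is thus an order of signals, not of transcript numbers. To show how far the probes alone can move a value, the 2 brightest probe sets of the same gene were compared in the 5878 genes above background that have more than 1. They differed by a median of 1.01 log2 units, and by over 3.67 in 1 gene in 10. In 36.6% of them the second probe set was not above background by the rule given next. When all probe sets of a gene were averaged, 27 genes named below lost that call: Adcy5, Aldoc, Cacna1b, Cacna1h, Cacnb1, Csf1r, Des, Epcam, Ezh1, F2rl2, Gfra2, Hoxa5, Hoxa9, Htr1b, Id4, Ldhb, Map4, Marf1, Nrcam, P2rx4, Pax6, Pts, Rest, Rnf220, Scn8a, Slc6a2 and Ttr. When only probe sets of unique design were used, 22 named genes lost it: Adcy5, Aldoc, Cacna1b, Cacna1c, Cacna1h, Csf1r, Ezh1, Fgfr1, Gnas, H2-D1, Hoxa5, Msmo1, P2rx4, Rps10, Rps18, Rps24, S1pr2, Slc25a3, Slc25a4, Smarca2, Tmsb10 and Tpt1. These lists hold for every mention of those genes. Only 333 of the 382 named genes had a probe set of unique design. The others, among them Gata2, Eno2, Ldha, Syn1, Kcnh2, F2r, B2m and many ribosomal genes, could not be checked in that way.

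Background was read from 77 genes of olfactory, vomeronasal, trace amine and taste receptors, which belong to sensory epithelia. Their median signal was 3.66 and their range 2.95 to 7.13. A gene was called above background when it exceeded the 95th percentile of these genes on each of the 3 arrays, which lay at 5.52, 5.85 and 5.55. By this rule 9006 of 18194 genes, or 49.5%, were above background, and 6388 genes, or 35.1%, passed the 99th percentile, at 7.06, 6.61 and 6.46. The 49.5% is the reference for every count of members below, but it is not adjusted for the number of probe sets of a gene. Of the 9012 genes with more than 1 probe set, 5878 were above background, a larger share than of all genes. A gene called not above background is one whose signal could not be told from these receptor genes, not one shown to be silent. A lead over such a gene is therefore given as at least a value, counted on each array from its threshold or from the dimmer gene, whichever was higher. A gene also had to pass on every array: 11 genes named below, Adra2c, Atp2a3, Fgfr3, Gapdhs, Gria2, Insm1, Ntrk2, Ntrk3, Ptger1, Sv2c and Tlx3, had a mean over the mean threshold of 5.64 but fell short on at least 1 array and are given as not above background. The gene means ran from 2.69 to 14.28 with a median of 5.84, and 2262 genes lay within 0.5 log2 units of that threshold.

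Replicate 1 stood slightly apart from replicates 2 and 3. Its Pearson correlation over all genes, which are not independent replicates, was 0.994 with replicate 2 and 0.993 with replicate 3, against 0.998 between replicates 2 and 3. It differed from them by over 1 log2 unit in 39 and 43 genes, and replicates 2 and 3 differed so in 0 genes. On replicate 1 the control probe sets for 18S ribosomal RNA were brighter, at 5.57 against 4.71 and 4.87. The transferrin receptor control showed a larger excess of 3′ over 5′ signal there, 1.34 against 1.02 and 0.95 log2 units. The part of RNA quality in the differences of that array was not tested. Without it 9045 genes were above background. In the genes above background the median SD over the 3 arrays was 0.11 log2 units, and 1 gene in 10 exceeded 0.25.

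**Figure D1:**
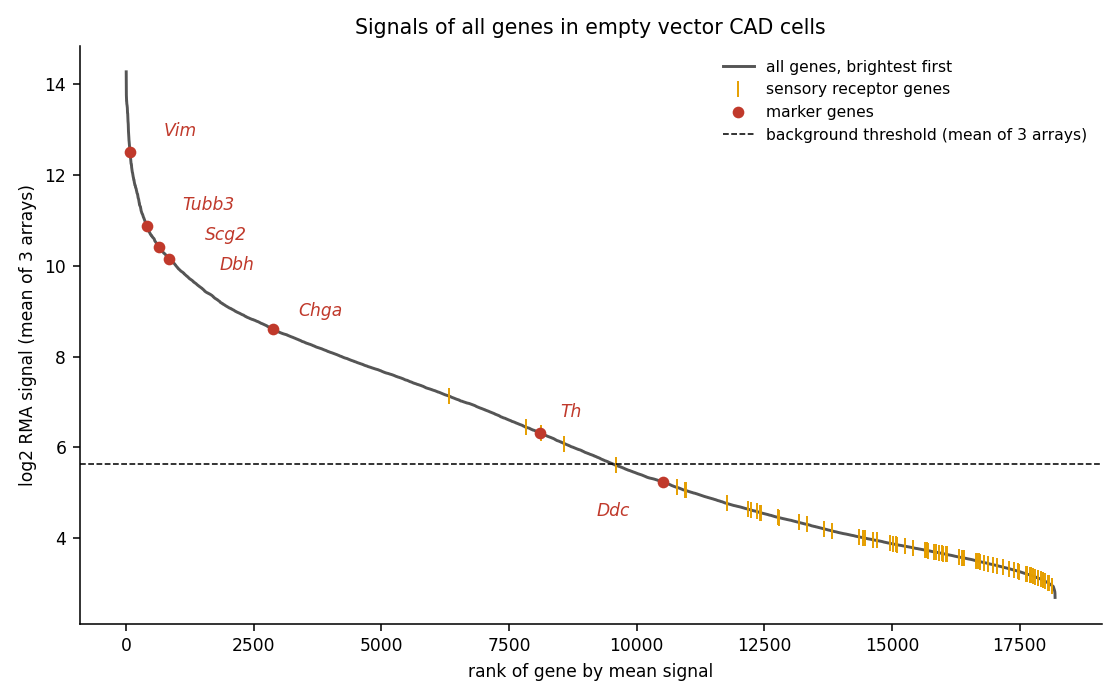
All 18194 genes from the brightest to the dimmest (x axis, rank) against their mean log2 RMA signal over the 3 empty vector arrays (y axis), with the 7 marker genes as red points, the 77 sensory receptor genes as orange ticks and the mean background threshold of 5.64 as a dashed line. Vim lies near the top of the curve, Th close to the threshold and Ddc below it, and most orange ticks lie at the dim end.

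The brightest signals were those of the translation machinery. Of the 30 brightest genes 22 encode cytosolic ribosomal proteins, led by Rpl41 at 14.28 ± 0.06. The others of these were Rps29, Rplp2, Rps18, Rpsa, Rpl4, Rpl38, Rps4x, Rps10, Rps2, Rplp0, Rpl11, Rps3a1, Rpl19, Rps28, Rps7, Rpl8, Fau, Rpl7a, Rps24, Rpl37a and Rps26. The 8 that are not ribosomal were the elongation factor Eef1a1 (13.90 ± 0.03), the actin Actb (13.65 ± 0.15), the growth-related Tpt1 (13.57 ± 0.05), the stimulatory G protein subunit Gnas (13.57 ± 0.08), the glycolytic enzyme Gapdh (13.55 ± 0.04), the chaperone Hspa8 (13.55 ± 0.05), the ATP synthase subunit Atp5b (13.55 ± 0.01) and the thymosin Tmsb10 (13.36 ± 0.04). Gapdh was read from a control probe set of the array. The list thus held housekeeping genes and no gene particular to neurons. Only 131 genes reached 12 and 978 genes, 5.38% of all, reached 10.

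Among gene classes taken by symbol root, a grouping chosen after the values were seen, the machinery of the mitochondrion and the proteasome was almost wholly above background. All 76 mitochondrial ribosomal proteins were called, as were 43 of 44 subunits of respiratory complex I and 37 of 40 proteasome subunits. At the other end were classes of secretory, barrier and xenobiotic tissues, with 7 of 44 keratins, 7 of 42 collagens, 2 of 20 claudins, 6 of 61 interleukins and chemokines and 4 of 72 cytochromes P450. Of the ligands of development, 3 of 19 Wnt genes and 1 of 22 fibroblast growth factor genes were above background. Their brightest members were Wnt11 (8.41 ± 0.03) and Fgf13 (7.12 ± 0.05), an intracellular member of its family.

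Of the 7 genes given as markers of the line, 6 were above background and 5 passed the stricter 99th percentile. Vim, the intermediate filament of mesenchymal cells and of many immature neural cells, was the brightest, at 12.14, 12.69 and 12.69 on replicates 1 to 3. With a mean of 12.51 ± 0.31 it ranked 77 of 18194 genes. Tubb3, the neuronal beta-tubulin, gave 10.75, 10.95 and 10.93 and ranked 404. Both were dimmest on replicate 1, and all 3 arrays of each lay far above their thresholds.

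The vesicle markers followed. Scg2, a granin of dense-core vesicles, gave 10.14, 10.53 and 10.59, a mean of 10.42 ± 0.24. Dbh, which makes noradrenaline, gave 10.46, 10.05 and 9.96, a mean of 10.16 ± 0.27 at rank 835, and all 3 of its probe sets were above background. Chga, the granin used as a clinical marker of neuroendocrine tumours, gave 8.77, 8.51 and 8.53, a mean of 8.60 ± 0.14 at rank 2878. Each of these 3 was brighter than at least 84.2% of all genes, the share below Chga.

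The enzymes of the first steps of catecholamine synthesis did not reach those levels. Th, the rate-limiting enzyme, gave 6.26, 6.44 and 6.25, a mean of 6.32 ± 0.11 at rank 8108. Each array was above its 95th percentile of sensory receptor genes and below its 99th, so the call of Th is lost under the stricter threshold. Ddc gave 5.09, 5.39 and 5.22, below the threshold on every array, and its 2 probe sets were both not above background. Of the catecholamine enzymes among the markers, only Dbh thus stood clear of background. In RNA of a whole culture, few cells with much of a transcript and many cells with little of it cannot be told apart.

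The promoters of Th, Scg2, Chga and Dbh are shown because these 4 genes carry the contrast above, with Th near background and the others bright. RefSeq places the 250 bases upstream of their annotated starts, on build GRCm38.p6, at chr7:142899996-142900245 (minus strand) for Th, chr1:79440027-79440276 (minus strand) for Scg2, chr12:102554691-102554940 (plus strand) for Chga and chr2:27165257-27165506 (plus strand) for Dbh. Capitals mark matches to TGACGTCA, the palindrome bound by cyclic AMP response factors, or, where it is not in the window, to its 5-base part TGACG, searched on both strands. TGACG lies within TGACGTCA on each strand, so that a full match holds both. Sequences read 5′ to 3′ towards the start.
Th: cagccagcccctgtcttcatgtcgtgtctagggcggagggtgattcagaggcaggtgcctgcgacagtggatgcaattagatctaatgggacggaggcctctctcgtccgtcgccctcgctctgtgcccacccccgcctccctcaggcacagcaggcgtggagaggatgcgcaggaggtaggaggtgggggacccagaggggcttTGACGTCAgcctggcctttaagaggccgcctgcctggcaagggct
Scg2: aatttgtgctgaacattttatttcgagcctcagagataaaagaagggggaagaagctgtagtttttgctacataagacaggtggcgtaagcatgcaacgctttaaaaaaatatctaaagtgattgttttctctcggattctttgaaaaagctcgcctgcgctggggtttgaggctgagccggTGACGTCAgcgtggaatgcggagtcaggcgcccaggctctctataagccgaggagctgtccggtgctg
Chga: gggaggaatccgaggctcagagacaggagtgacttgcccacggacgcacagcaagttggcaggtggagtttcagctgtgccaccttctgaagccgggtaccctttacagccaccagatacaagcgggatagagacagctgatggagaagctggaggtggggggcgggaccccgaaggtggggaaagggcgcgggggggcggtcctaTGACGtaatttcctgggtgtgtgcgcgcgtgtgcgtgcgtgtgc
Dbh: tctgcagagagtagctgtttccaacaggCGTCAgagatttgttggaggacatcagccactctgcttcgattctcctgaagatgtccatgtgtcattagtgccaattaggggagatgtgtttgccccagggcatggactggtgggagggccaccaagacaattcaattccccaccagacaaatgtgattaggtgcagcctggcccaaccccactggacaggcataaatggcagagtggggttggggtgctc

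The full palindrome began 45 bases upstream of the start of Th and 68 bases upstream of that of Scg2. The Chga window held TGACG 44 bases upstream of its start, and the Dbh window held it on the opposite strand 222 bases upstream. Among 32851 promoters in the RefSeq table, 1.55% held TGACGTCA and 17.8% held TGACG in the same 250 bases. The full match was thus present in the dimmest of these 4 genes as well as in a bright one. A match is a description of letters, not a bound site.

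Over the whole catecholamine route, with Th, Ddc and Dbh counted, 11 of the 16 genes measured were above background. The cofactor tetrahydrobiopterin, which Th needs, is made by Gch1, Pts and Spr and regenerated by Qdpr and Pcbd1, and all 5 genes were called. Gch1, the rate-limiting enzyme, gave 11.33, 11.52 and 11.39, a mean of 11.41 ± 0.10, and was the brightest gene of the route. Qdpr (9.43 ± 0.24) and Pcbd1 (9.05 ± 0.06) came next among them, then Spr (7.77 ± 0.07) and Pts (6.42 ± 0.09). Gch1 exceeded Th by several times the 1.01 log2 units that separate probe sets of the same gene.

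Storage genes were split and breakdown genes were read from 1 of 2 members. Cyb561, the vesicle membrane protein that supplies electrons to Dbh, gave 8.29, 7.40 and 7.62, a mean of 7.77 ± 0.46. Neither vesicular monoamine transporter was above background, with Slc18a1 at 4.95 ± 0.11 and Slc18a2 at 3.99 ± 0.17. Of the monoamine oxidases, Maoa gave 8.61, 8.59 and 8.43 and Maob 3.56, 3.69 and 3.81, so that Maoa led by at least 2.90 log2 units. Both arms of that pair kept their calls when probe sets of a gene were averaged.

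Pnmt, which methylates noradrenaline to adrenaline, gave 7.83, 7.18 and 7.18, above background on every array and highest on replicate 1. Slc6a2, the noradrenaline transporter, was faint at 6.27, 5.85 and 5.88, with 1 of its 4 probe sets above background and each array below the 99th percentile. Replicate 2 lay at the threshold of that array, and the call was also lost with quantile normalization. Slc6a3, the dopamine transporter, was not above background at 4.01 ± 0.20, nor was the serotonin transporter Slc6a4 (4.05 ± 0.06). The uptake genes thus gave little signal over the receptor genes used as background.

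**Figure D2:**
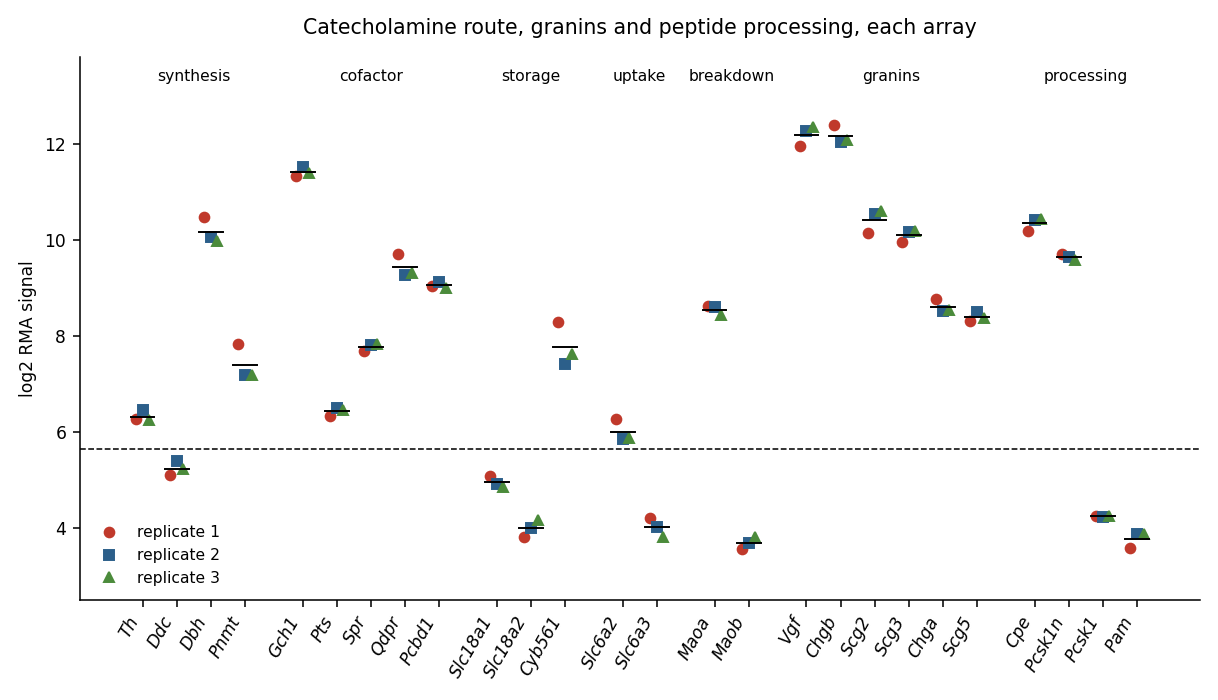
Log2 RMA signal (y axis) of genes of the catecholamine route, the granins and peptide processing (x axis) on each of the 3 empty vector arrays (circles, squares and triangles for replicates 1, 2 and 3), with the mean as a black bar and the mean background threshold of 5.64 as a dashed line. Dbh, Gch1 and all 6 granins lie well above the line, Th and Slc6a2 just above it, and Ddc, both vesicular monoamine transporters, Slc6a3, Maob, Pcsk1 and Pam below it.

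Granins, acidic proteins that help to form dense-core vesicles, were the brightest neuronal family of the secretory route, with 6 of 6 above background. Vgf gave 11.95, 12.27 and 12.35 and Chgb 12.38, 12.03 and 12.07. Their means of 12.19 ± 0.21 and 12.16 ± 0.19 were tied within their spread, and Chgb was the brighter on replicate 1. Scg2 (10.42 ± 0.24) and Scg3 (10.10 ± 0.13) followed, then Chga (8.60 ± 0.14) and Scg5 (8.39 ± 0.09), the chaperone of a prohormone convertase. Chga was therefore among the dimmer granins here.

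The enzymes that cut and amidate peptides were split. Cpe, which trims peptides after cleavage, gave 10.34 ± 0.14, and Pcsk1n, an inhibitor of the convertase Pcsk1, gave 9.64 ± 0.06. The convertase itself was not above background, at 4.25, 4.22 and 4.25, nor was the amidating enzyme Pam, at 3.58, 3.87 and 3.87. Among the other convertases the ubiquitous Furin (8.25 ± 0.21), Pcsk7 (7.15 ± 0.07) and Pcsk6 (6.81 ± 0.26) were above background, and Pcsk4 (5.53 ± 0.16) and Pcsk5 (4.65 ± 0.14) were not. The convertase Pcsk2 was not matched to a gene of the array and was not analysed here.

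Of 22 neuropeptide precursors, 5 were above background. Npy, the cotransmitter of sympathetic and many noradrenergic neurons, gave 11.85, 12.47 and 12.41, a mean of 12.24 ± 0.34 at rank 97, and no other precursor came within 4 log2 units of it. Vip came next at 5.99, 7.69 and 8.01, with a low replicate 1. Pomc (6.95 ± 0.24), Cartpt (6.75 ± 0.07) and Oxt (6.72 ± 0.11) were the remaining 3, and each lay below 7. Precursors that mark other peptide neurons, such as Gal (4.71 ± 0.20), Sst (5.22 ± 0.08), Penk (3.53 ± 0.20) and Tac1 (3.68 ± 0.13), were not above background.

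Genes of other transmitters were largely not above background. Neither of the 2 vesicular glutamate transporters measured was called, with Slc17a7 at 3.96 ± 0.10 and Slc17a6 at 3.84 ± 0.23. The GABA-making enzymes Gad1 (3.89 ± 0.26) and Gad2 (3.59 ± 0.12) were not called either, although the GABA-degrading enzyme Abat (7.77 ± 0.05) and the glycine transporter Slc6a9 (7.98 ± 0.04) were. For acetylcholine only the vesicular transporter Slc18a3 (6.37 ± 0.10) was above background, and Chat (4.30 ± 0.08), the synthesizing enzyme, was not. None of the 4 serotonin and histamine genes was, among them the tryptophan hydroxylases Tph1 (5.30 ± 0.50) and Tph2 (4.07 ± 0.17).

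Transcription factors of the noradrenergic and sympathoadrenal lineage were among the bright genes, 10 of 14 above background with a list median of 8.32 against 5.84 for all genes. Hand2, a factor of sympathetic neurons, gave 11.30, 11.29 and 11.35, a mean of 11.31 ± 0.03 at rank 275, with all 3 of its probe sets above background. Phox2a, which drives Dbh in noradrenergic neurons, gave 11.48, 10.90 and 10.85, a mean of 11.08 ± 0.35. Sox4, a factor of immature neurons, was the brightest of the list at 11.51 ± 0.26. Each of these 3 was brighter than at least 98.2% of all genes, the share below Phox2a.

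Gata2 (9.67 ± 0.10), Isl1 (9.57 ± 0.02), which marks sympathetic and other peripheral neurons, and Mycn (9.15 ± 0.33), the oncogene amplified in neuroblastoma, came next. Sox11 (8.41 ± 0.08) and Rnf220 (8.24 ± 0.04), a ubiquitin ligase on the list, also passed the stricter threshold. Tfap2a (6.66 ± 0.11) and Hand1 (6.45 ± 0.18) passed only the 95th percentile. Gata3 (5.28 ± 0.22), a partner of Gata2 in sympathetic development, Tfap2b (4.15 ± 0.10), Tlx3 (5.69 ± 0.08) and Insm1 (5.95 ± 0.37) were not above background. Between the paired factors, Hand2 was thus far brighter than Hand1 and Gata2 than Gata3. Tfap2a was called where Tfap2b was not, but only by the 95th percentile.

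Factors of midbrain dopamine neurons were mostly not above background, 2 of 9. Those called were Foxa1 (6.67 ± 0.09) and the nuclear receptor Nr4a2 (6.50 ± 0.08), both below the 99th percentile. En1 (2.97 ± 0.07), En2 (3.52 ± 0.18), Otx2 (3.04 ± 0.04), Pitx3 (4.58 ± 0.07), Lmx1a (3.85 ± 0.09), Lmx1b (5.04 ± 0.12) and Foxa2 (4.05 ± 0.05) were not. Of 11 forebrain factors 3 were above background, led by Dlx2 (8.05 ± 0.33), a homeobox gene of inhibitory neuron precursors, with Six3 (6.86 ± 0.05) and Dlx1 (6.55 ± 0.18) behind it.

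Of 33 Hox genes, which pattern the hindbrain, spinal cord and trunk, 5 were above background and 28 were not. Hoxc9 gave 8.16, 8.13 and 8.12, a mean of 8.14 ± 0.02, and was the only one past the stricter threshold. The other 4 were Hoxc6 (6.58 ± 0.14), Hoxa7 (6.38 ± 0.19), Hoxa5 (6.30 ± 0.27) and Hoxa9 (6.05 ± 0.14). All 5 belong to the A and C clusters, and the paralogs of Hoxc9 measured, Hoxa9, Hoxb9 (3.71 ± 0.04) and Hoxd9 (5.12 ± 0.17), were at least 2 log2 units dimmer.

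Proneural and differentiation factors were called in 9 of 22 cases. Ebf3 (8.53 ± 0.17), a factor of postmitotic neurons, was the brightest, then Myt1 (7.56 ± 0.26), Scrt1 (7.51 ± 0.11), Pou3f3 (7.37 ± 0.27), Scrt2 (6.78 ± 0.00) and Myt1l (6.58 ± 0.23). Ebf1 (3.94 ± 0.16) and Ebf2 (3.47 ± 0.27) and the Neurog genes, from Neurog1 (5.52 ± 0.03) to Neurog2 (3.51 ± 0.16), were not above background. Rest, the repressor of neuronal genes in other cells, was faint at 6.28, 6.55 and 6.68, and 10 of 11 genes measured for its corepressors and phosphatases were above background. These were led by Hdac2 (10.68 ± 0.07), the demethylase Kdm1a (10.63 ± 0.09), Hdac1 (9.95 ± 0.05), the methyltransferase Ehmt2 (9.91 ± 0.03) and the phosphatase Ctdsp2 (9.36 ± 0.09), and the exception was Ctdspl (4.74 ± 0.16).

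Markers of other cell types were at or near background. None of 7 astrocyte, 6 endothelial, 7 fibroblast, 4 pluripotency or 2 erythroid genes was above background, among them Gfap (4.72 ± 0.10), Pecam1 (4.69 ± 0.17), Col1a1 (4.41 ± 0.11), Pou5f1 (4.02 ± 0.11) and Hba-a1 (3.93 ± 0.04). Of 8 oligodendrocyte and Schwann cell genes only Cnp (6.10 ± 0.14) was called, of 7 microglia and leukocyte genes only Csf1r (6.16 ± 0.10), of 6 muscle genes only Des (6.01 ± 0.19) and of 4 hepatocyte genes only Ttr (6.14 ± 0.13). Epithelial Krt8 (6.62 ± 0.16) and Epcam (6.38 ± 0.35) were above background, and Cdh1 (3.37 ± 0.07) and Krt18 (4.09 ± 0.18) were not. No gene of these 10 lists passed the 99th percentile. The 3 collagen genes and the decorin gene Dcn (5.04 ± 0.02) of the fibroblast list were at background although Vim was bright.

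Of 5 neural progenitor genes 4 were above background. Nes, the intermediate filament of neural precursors, gave 7.86, 7.92 and 7.92, a mean of 7.90 ± 0.03, and alone passed the stricter threshold. Hes1 (6.42 ± 0.13), Hes5 (6.20 ± 0.27) and Pax6 (6.00 ± 0.13) passed the 95th percentile, and Sox2 gave 3.24, 2.95 and 3.01, among the dimmest signals of the arrays.

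**Figure D3:**
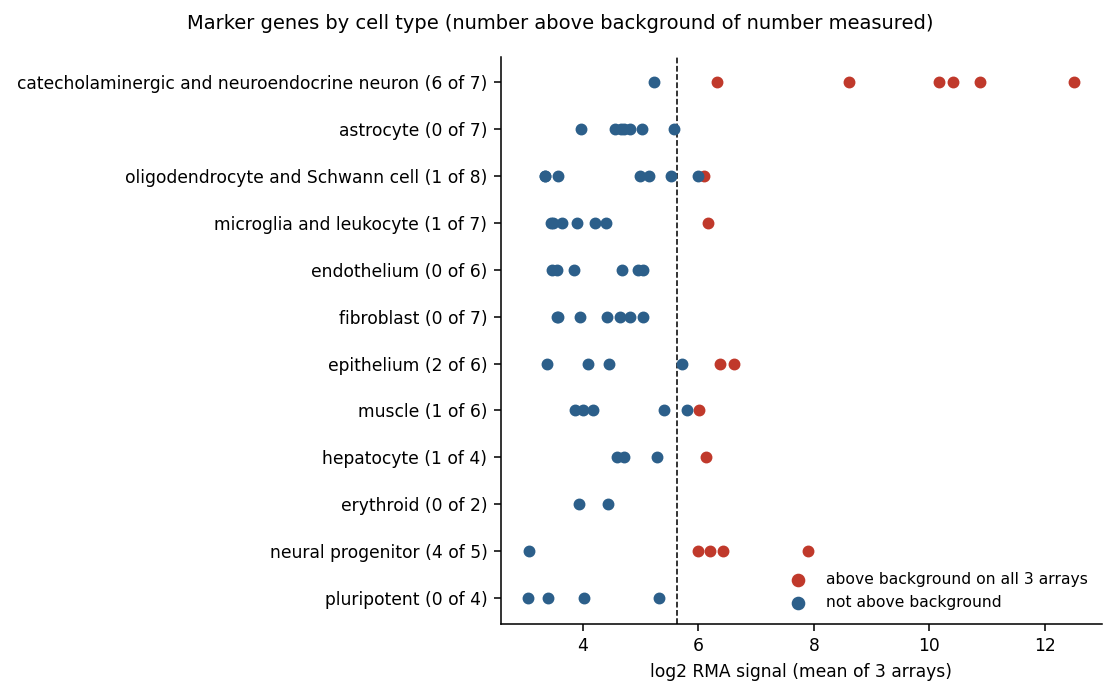
Mean log2 RMA signal over the 3 empty vector arrays (x axis) of each marker gene, 1 row for each cell type with the number above background of the number measured; red points are above background on all 3 arrays, blue points are not, and the dashed line is the mean threshold of 5.64. Only the catecholaminergic and neuroendocrine row, from Ddc at 5.23 to Vim at 12.51, and Nes in the neural progenitor row reach beyond 7.

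Cytoskeleton families, which here include actins and tubulins beside neuronal filaments, were bright, with 35 of 46 members above background and a median of 9.30. Prph, the intermediate filament of peripheral and brainstem neurons, gave 11.94, 11.96 and 12.03, a mean of 11.97 ± 0.05, second only to Vim in its family. The heavy neurofilament Nefh (9.95 ± 0.05) and alpha-internexin, Ina (9.85 ± 0.31), were bright, whereas the medium and light neurofilaments were not above background, Nefm at 3.52, 3.50 and 3.55 and Nefl at 3.51, 3.48 and 3.37. The 3 neurofilament subunits, which assemble together in mature axons, thus differed in their calls.

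Stathmins, which bind tubulin, were above background in 4 of 4 cases, from Stmn1 (12.47 ± 0.03) and Stmn3 (11.32 ± 0.09) to Stmn2 (10.12 ± 0.09) and Stmn4 (8.31 ± 0.10); among probe sets of unique design alone Stmn3 led. Growth cone proteins were as bright, with Basp1 at 12.27 ± 0.06, Marcksl1 at 11.70 ± 0.04, Marcks at 10.51 ± 0.16 and Gap43 at 10.14 ± 0.06. Of the collapsin response mediators Dpysl3 (11.59 ± 0.16) led and Crmp1 (10.41 ± 0.09) was second, an order that turned when probe sets were averaged. Map1b, the microtubule-associated protein of growing axons, gave 10.21 ± 0.31, over 2 log2 units more than Map1a (7.84 ± 0.19), Map4 (7.68 ± 0.38), Mapt (7.31 ± 0.06) and Map2 (7.30 ± 0.11). Dcx, the doublecortin of migrating neurons, was not above background at 3.99, 3.79 and 3.75.

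Of 14 genes of the synaptic vesicle and its fusion machinery 11 were above background. Cplx1 gave 10.28 ± 0.27, Snap25 10.05 ± 0.39, Syt1 9.91 ± 0.15, Rab3a 8.72 ± 0.36, Syn1 8.63 ± 0.35 and Stx1a 8.62 ± 0.10. The brightest synapsin and the brightest Rab3 GTPase were Syn2 (9.25 ± 0.16) and Rab3c (9.27 ± 0.34), and Syn1 and Rab3a took their places when probe sets were averaged. Cplx1 was 2.97 log2 units above Cplx2 (7.31 ± 0.12), and Cplx3 and Cplx4 were not above background. The 3 that were not called, Bsn (5.34 ± 0.15), Rims1 (4.50 ± 0.22) and Pclo (3.81 ± 0.05), are large scaffolds of the presynaptic active zone, while Unc13a (6.79 ± 0.31), which primes vesicles there, was. Of the SV2 proteins of vesicle membranes only Sv2a (6.96 ± 0.30) was above background, against Sv2c (5.71 ± 0.11) and Sv2b (4.07 ± 0.21).

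On the postsynaptic side 10 of 14 scaffold genes were above background, led by Dlgap4 (9.22 ± 0.10), Dlg1 (8.39 ± 0.05) and Gphn (8.16 ± 0.17), the scaffold of inhibitory synapses. Shank1 (5.37 ± 0.32) and Shank3 (4.62 ± 0.12) were not. The receptors that these scaffolds hold were largely not above background, as follows.

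Receptors that are ion channels, other than the serotonin-gated ones, were called in 8 of 57 cases, beside 49.5% of all genes. Their median was 4.46. The serotonin-gated subunits were counted with the other serotonin receptors. Chrna3, the nicotinic subunit of autonomic ganglia, gave 9.87, 9.27 and 9.29, a mean of 9.48 ± 0.34, 2.91 log2 units above the next subunit, Chrna7 (6.57 ± 0.11). Chrnb2 (6.47 ± 0.28) and Chrnd (6.05 ± 0.14) were faint, and the other 11 subunits measured were not above background, among them Chrnb4 (4.65 ± 0.09) and Chrna5 (4.48 ± 0.27), which partner Chrna3 in ganglia. Htr3a, a subunit of the serotonin-gated channel, gave 10.91, 10.52 and 10.36, a mean of 10.60 ± 0.28, and led the serotonin receptors by 4.34 log2 units over Htr1b (6.26 ± 0.21). Its channel partner Htr3b was faint at 5.96 ± 0.23.

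None of 15 GABA-A receptor subunits and none of 5 glycine receptor subunits was above background. Their brightest members were Gabrp (4.82 ± 0.08) and Glrb (4.34 ± 0.03). Of 9 AMPA and kainate receptor subunits only Grik5 (7.88 ± 0.08) was called, at least 2.14 log2 units above Gria2 (5.70 ± 0.22), and of 6 NMDA receptor subunits only Grin2d, at a faint 5.89 ± 0.15. Among P2X receptors for ATP, P2rx7 (6.27 ± 0.06) and P2rx4 (5.93 ± 0.04) were above background, and neither passed the 99th percentile.

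Voltage-gated and related channels were called in 25 of 107 cases, or 23.4%. Of the sodium channels, 2 of 8 pore-forming subunits were above background, Scn9a, a channel of sympathetic and sensory neurons, at 7.63, 7.73 and 7.89 and Scn8a at 6.00, 6.13 and 6.17. Scn9a led on all 3 arrays, although with probe sets of unique design alone Scn8a did. Of the auxiliary subunits Scn3b gave 8.66, 8.67 and 8.58, against 4.80 ± 0.15 for Scn2b, and was the only 1 of 3 above background.

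Calcium channel pores were faint. The 3 of 9 that were called, Cacna1h (6.38 ± 0.03), Cacna1b (6.28 ± 0.10) and Cacna1c (6.20 ± 0.22), lay within 0.2 log2 units of each other and below the 99th percentile. Cacnb1 (6.26 ± 0.22) was the only 1 of 3 beta subunits called, and none of 4 alpha-2-delta subunits was. Potassium channels of the Kv1, Kv7 and calcium-activated families were not above background in any of 7, 3 and 5 members. Kcnh2, the Erg channel, gave 8.96, 8.58 and 8.65, the brightest of all potassium channel genes, and Kcnh3 (7.23 ± 0.07) was second in its family. Kcnh2 had no probe set of unique design, so their order could not be checked with those alone. Kcnk3 (6.68 ± 0.20) was the only 1 of 10 leak channels of its family above background, and Hcn2 (7.62 ± 0.21) and Hcn3 (7.44 ± 0.19), the pacemaker channels measured, were tied.

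**Figure D4:**
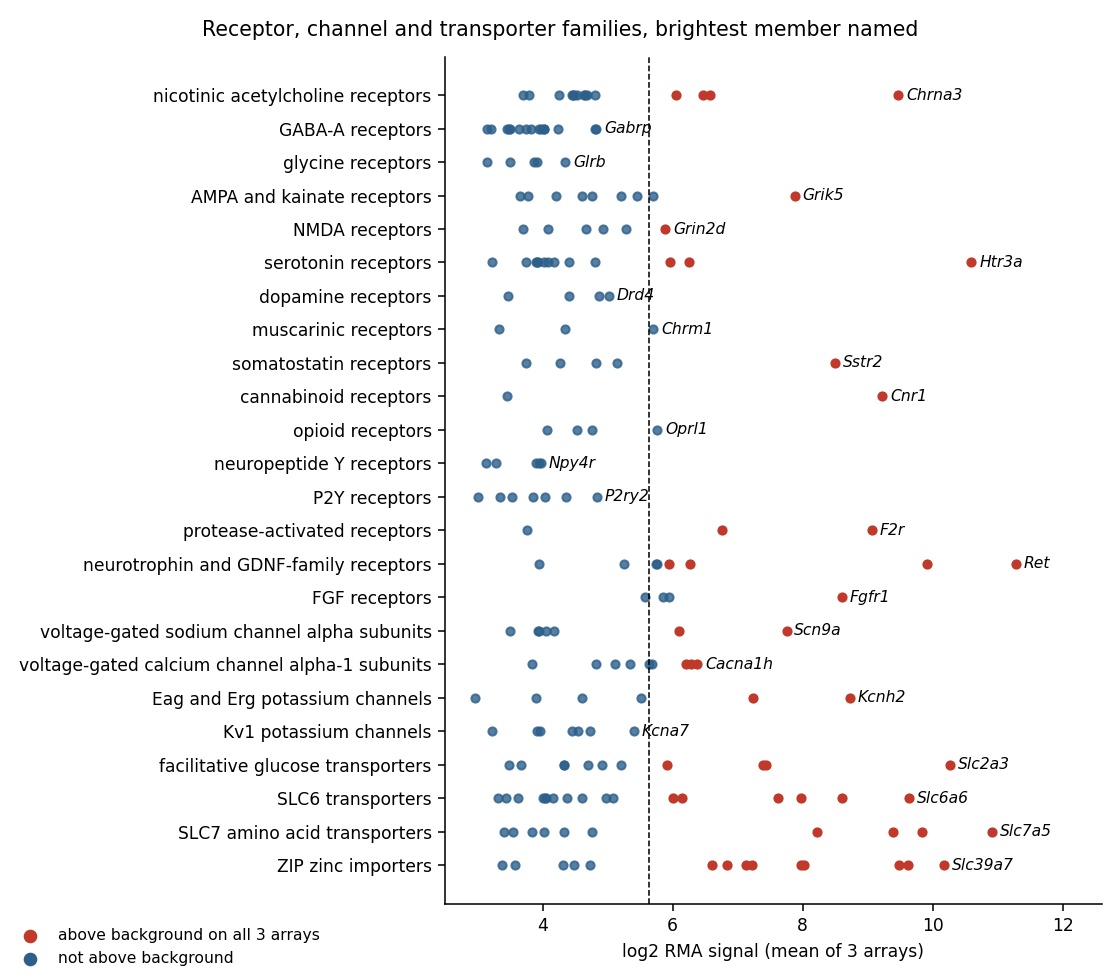
Mean log2 RMA signal over the 3 empty vector arrays (x axis) of every measured member of 24 receptor, channel and transporter families (rows), with the brightest member named; red points are above background on all 3 arrays, blue points are not, and the dashed line is the mean threshold of 5.64. Chrna3, Htr3a, Cnr1 and Sstr2 each stand well to the right of their families, while the GABA-A, glycine, dopamine, muscarinic, opioid, neuropeptide Y and P2Y receptors and the Kv1 channels hold no red point.

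Of the G protein-coupled receptor families, counting the serotonin family with its channel subunits, 12 of 78 members, or 15.4%, were above background. Cnr1, the cannabinoid receptor of neurons, gave 9.51, 9.00 and 9.16, a mean of 9.22 ± 0.26, and Cnr2, the receptor of immune cells, 3.44, 3.49 and 3.44, so that Cnr1 led by at least 3.58 log2 units. Sstr2, a receptor for somatostatin that is used to image neuroendocrine tumours, gave 8.41, 8.56 and 8.54, at least 2.86 log2 units above Sstr3 (5.15 ± 0.13), and the other 4 of its family were not above background. F2r, the thrombin receptor, gave 9.18, 9.03 and 9.00, ahead of F2rl2 (6.75 ± 0.07). F2r had no probe set of unique design, so its lead could not be checked with those alone.

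Other receptors were the sole called member of their families at lower signals. These were the PACAP receptor Adcyap1r1 (7.05 ± 0.10), against Vipr2 (4.33 ± 0.16) and Vipr1 (3.83 ± 0.12), the prostaglandin receptor Ptger4 (7.40 ± 0.32), against Ptger1 (5.77 ± 0.12), the sphingosine 1-phosphate receptor S1pr2 (6.53 ± 0.23) and the lysophosphatidic acid receptor Lpar6 (6.50 ± 0.06). Adcyap1r1 was thus called where the 2 VIP receptors were not, in cells whose Vip signal was above background. For Npy, the brightest precursor, none of 5 receptors was above background, from Npy2r at 3.13 ± 0.04 to Npy4r at 3.97 ± 0.04. None of 4 dopamine, 3 muscarinic, 4 opioid, 7 P2Y and 6 metabotropic glutamate receptors was called, and among adrenoceptors the 2 measured, Adra2c (5.68 ± 0.24) and Adra1b (5.19 ± 0.11), were not either.

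Downstream of these receptors the shared signalling proteins were called in 40 of 61 cases, or 65.6%. Gnas led the G protein alpha subunits, followed by Gna13 (9.88 ± 0.25), although Gna11 and Gna13 led under the other choices of probe set. Gnai2 (9.40 ± 0.05) and Gnai3 (9.51 ± 0.02) were bright and Gnai1 (3.83 ± 0.03) was not above background. Adcy6 (8.39 ± 0.09) and Adcy5 (7.53 ± 0.19) were the brightest of 4 adenylate cyclases called out of 9. Prkar1a (12.32 ± 0.22) led the subunits of protein kinase A, 3.04 log2 units above the catalytic Prkaca (9.28 ± 0.13).

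Receptors of growth factors and morphogens were called in 25 of 66 cases, or 37.9%. Ret, the GDNF-family signalling receptor of autonomic neurons, gave 10.96, 11.46 and 11.42, a mean of 11.28 ± 0.27 at rank 283. Its co-receptors that bind the ligands were much dimmer, Gfra2 at 6.49, 6.13 and 6.19 and Gfra3 at 6.11, 5.93 and 5.79, and Gfra1 (3.94 ± 0.22) and Gfra4 (5.25 ± 0.18) were not above background. Ngfr, the low-affinity neurotrophin receptor, gave 9.70, 10.00 and 10.02, while the kinase receptors Ntrk2 (5.76 ± 0.13) and Ntrk3 (5.74 ± 0.19) were not above background.

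Fgfr1 gave 8.15, 8.83 and 8.83 and was the only 1 of 4 FGF receptors above background, although with probe sets of unique design alone Fgfr3 was brightest. Tgfbr1 (10.49 ± 0.22) led the type I receptors of the TGF-beta family by 1.99 log2 units over Acvr1b (8.49 ± 0.08). Alk, a kinase mutated in neuroblastoma, was faint at 6.21, 6.35 and 6.54 and tied with Ltk (6.36 ± 0.25). None of 4 Notch receptors, 3 VEGF receptors or the pair of Met and Mst1r was above background, and of 9 EphA receptors only Epha10 (5.88 ± 0.27) was.

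Transporter families were called in 54 of 118 cases, or 45.8%, close to the 49.5% of all genes. By symbol, 151 of 345 solute carriers were above background, and the 4 brightest were all mitochondrial carriers, a ranking chosen after the values were seen. They were the adenine nucleotide carriers Slc25a5 (12.59 ± 0.04) and Slc25a4 (12.44 ± 0.04), the phosphate carrier Slc25a3 (11.91 ± 0.09) and Slc25a39 (11.77 ± 0.05). The testis member of the adenine nucleotide carriers, Slc25a31, was not above background at 3.06 ± 0.05.

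At the plasma membrane the 3 brightest were Slc7a5 (10.91 ± 0.12), the light chain of the large neutral amino acid exchanger, which also carries L-DOPA, the neutral amino acid transporter Slc38a2 (10.62 ± 0.18) and the heavy chain partner of Slc7a5, Slc3a2 (10.54 ± 0.06). They lay within 0.5 log2 units of each other, and Slc38a1 was brighter than Slc38a2 when probe sets were averaged. Slc7a1 (9.83 ± 0.20), for cationic amino acids, was second in its family, and 6 of its 10 members were not above background, among them the cystine exchanger Slc7a11 (4.76 ± 0.20). Slc2a3, the glucose transporter typical of neurons, gave 10.29, 10.25 and 10.28, 2.83 log2 units above Slc2a8 (7.44 ± 0.12) and far above Slc2a1 (7.39 ± 0.16), the transporter of most dividing cells. Slc16a1 (10.28 ± 0.13) led the monocarboxylate transporters, with Slc16a3 (7.13 ± 0.52) second, an order that turned when probe sets were averaged.

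Among SLC6 transporters, which include the monoamine carriers, 6 of 17 were above background, led by the taurine transporter Slc6a6 (9.63 ± 0.02) and the neutral amino acid transporter Slc6a15 (8.61 ± 0.12), which exchanged places when probe sets were averaged. Ion pumps showed a choice as well. Atp2a2, the calcium pump of the endoplasmic reticulum in most cells, gave 10.67, 10.60 and 10.68, at least 4.84 log2 units above Atp2a3 (5.76 ± 0.09), and of the plasma membrane pumps Atp2b1 gave 8.48, 8.74 and 8.84 against Atp2b3 at 5.21, 5.53 and 5.10. None of the 3 sodium-calcium exchangers was above background. Zinc transporters were widely called, 9 of 14 importers, led by Slc39a7 (10.18 ± 0.02), and 7 of 10 exporters, led by Slc30a5 (9.86 ± 0.10).

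In energy metabolism 28 of 40 isozymes were above background. The testis forms Gapdhs, Pgk2, Pdha2 and Cyct, the muscle forms Pgam2 and Eno3 and the liver form Pklr were each the dimmer of 2 measured members. Aldoa (12.34 ± 0.02) exceeded Aldoc (6.01 ± 0.37) by 6.32 log2 units, Ldha (12.42 ± 0.04) exceeded Ldhb (6.81 ± 0.13) by 5.62, and Pkm (11.78 ± 0.07) exceeded Pklr (6.90 ± 0.10) by 4.87. Pgam1 (10.97 ± 0.06) stood at least 5.33 above the muscle form Pgam2 (5.24 ± 0.14). The testis forms Gapdhs, Pgk2, Pdha2 and Cyct were not above background, and Gapdh, Pgk1 (10.57 ± 0.08), Pdha1 (10.17 ± 0.12) and Cycs (12.27 ± 0.10) lay at least 7.69, 4.93, 4.53 and 6.63 log2 units above them. Eno2 (9.03 ± 0.36), the neuronal enolase, lay 2.99 above the muscle form Eno3 (6.05 ± 0.20), and the ubiquitous Eno1 was not analysed here.

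RNA-binding families were called in 35 of 47 cases, or 74.5%. Of the polypyrimidine tract binding proteins, which repress neuronal exons, all 3 were above background. Ptbp1, the form of non-neuronal and dividing cells, gave 11.98, 12.01 and 12.07, and Ptbp2, the form of neurons, gave 8.30, 8.55 and 8.86, with Ptbp3 (9.20 ± 0.13) between them. Ptbp1 led on all 3 arrays, and with probe sets of unique design alone Ptbp3 did. All 4 Hu proteins were also called, Elavl4 (9.84 ± 0.05), Elavl2 (8.78 ± 0.26) and Elavl3 (8.10 ± 0.04), the neuronal forms, and Elavl1 (9.27 ± 0.20), the ubiquitous form, so that neuronal and ubiquitous forms were read in the same RNA.

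Other RNA families turned on a leader. Khdrbs1 (10.40 ± 0.08) lay at least 4.76 log2 units above Khdrbs2 (4.52 ± 0.23), and Lin28a, a blocker of let-7 microRNA maturation in embryonic cells, gave 8.34, 8.07 and 8.13 against 3.01, 3.19 and 3.22 for Lin28b. Ago2 (9.69 ± 0.10), the slicing Argonaute, led Ago1 (7.12 ± 0.05) by 2.57, and Ago3 (5.25 ± 0.17) and Ago4 (4.77 ± 0.16) were not above background. The muscle and neuron form of elongation factor 1 alpha, Eef1a2, was bright at 12.59, 12.46 and 12.47, 1.40 below Eef1a1.

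Cell cycle genes were above background in 22 of 23 cases, with a median of 9.77. Pcna (11.95 ± 0.13), the clamp of DNA replication, Mcm7 (11.11 ± 0.02), Rrm1 (10.80 ± 0.28), Top2a (10.75 ± 0.21), Cdk1 (10.68 ± 0.27) and Cdt1 (10.46 ± 0.06) led, and the exception was Tyms, at 4.19, 4.45 and 4.64. Cdk4 gave 11.37, 11.29 and 11.25 and Cdk6 4.09, 4.06 and 3.91, a lead of at least 5.66 log2 units. Of the D-type cyclins Ccnd1 (9.88 ± 0.20) and Ccnd3 (9.12 ± 0.15) were called, and Ccnd2 (5.08 ± 0.46) was not. Mycn and Myc (9.11 ± 0.13) were tied, and Mycl (3.88 ± 0.05) was not above background.

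Chromatin families were the most widely called, 31 of 36, or 86.1%. Of the ATPases of the SWI/SNF remodelling complex Smarca4 (9.98 ± 0.07) lay 3.96 above Smarca2 (6.02 ± 0.34). In the subunits of that complex that are exchanged when progenitors become postmitotic neurons, the progenitor forms were brighter. Actl6a (9.23 ± 0.24) lay 2.56 above its neuronal counterpart Actl6b (6.66 ± 0.19). Dpf2 (9.99 ± 0.14) and Phf10 (9.75 ± 0.20) exceeded Dpf1 (6.80 ± 0.05) and Dpf3 (6.74 ± 0.23), the neuronal forms, by about 3 log2 units. Ezh2 (9.28 ± 0.22) exceeded Ezh1 (6.12 ± 0.08) by 3.17, and Dnmt1 (9.41 ± 0.04), the maintenance methyltransferase, led Dnmt3a (7.87 ± 0.08).

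Adhesion families were called in 19 of 70 cases, or 27.1%. Ncam1 gave 9.77, 9.73 and 9.70 against 3.50, 3.22 and 3.38 for Ncam2, and L1cam (10.28 ± 0.20) led its family by 2.95 log2 units over Nrcam (7.33 ± 0.15). Of 12 classical cadherins only Cdh6 (6.52 ± 0.09) was above background, and neither Cdh2 (5.51 ± 0.18), the cadherin of neural tissue, nor Cdh1, that of epithelia, was. Nlgn2 (7.59 ± 0.12) was the only 1 of 3 neuroligins called and Gjc1 (7.79 ± 0.15) the only 1 of 11 connexins. None of 3 caveolins was above background.

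Over 162 families with 2 or more measured members, 24 had none above background, 35 had exactly 1, 69 had some but not all and 34 had all. In the 138 families with a leader above background, that leader was the brightest on all 3 arrays in 127. Its lead over the next member, here as the difference of the measured signals whether or not that member was above background, had a median of 1.29 log2 units, exceeded the 1.01 that separates probe sets of the same gene in 82 families, and exceeded 3.67 in 21. The leader stayed the same under all alternative settings that measured 2 members in 78 of the 138 families, and changed under 1 or more in 60. A change was also counted where the leader had no probe set of unique design, as with Kcnh2 and F2r.

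Where exactly 1 member was above background, the others were below the threshold by the choice of these families, so each lead is a bound and is not set against the leads of other families. Over the 35 families the bound had a median of 2.14 log2 units and a range of 0.24 to 7.69. It exceeded 3.67 in 9, those led by Gapdh, Cycs, Cdk4, Pgam1, Pgk1, Atp2a2, Khdrbs1, Pdha1 and Ncam1. These held glycolytic and mitochondrial proteins, a cyclin-dependent kinase, a calcium pump, an RNA-binding protein and an adhesion molecule.

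**Figure D5:**
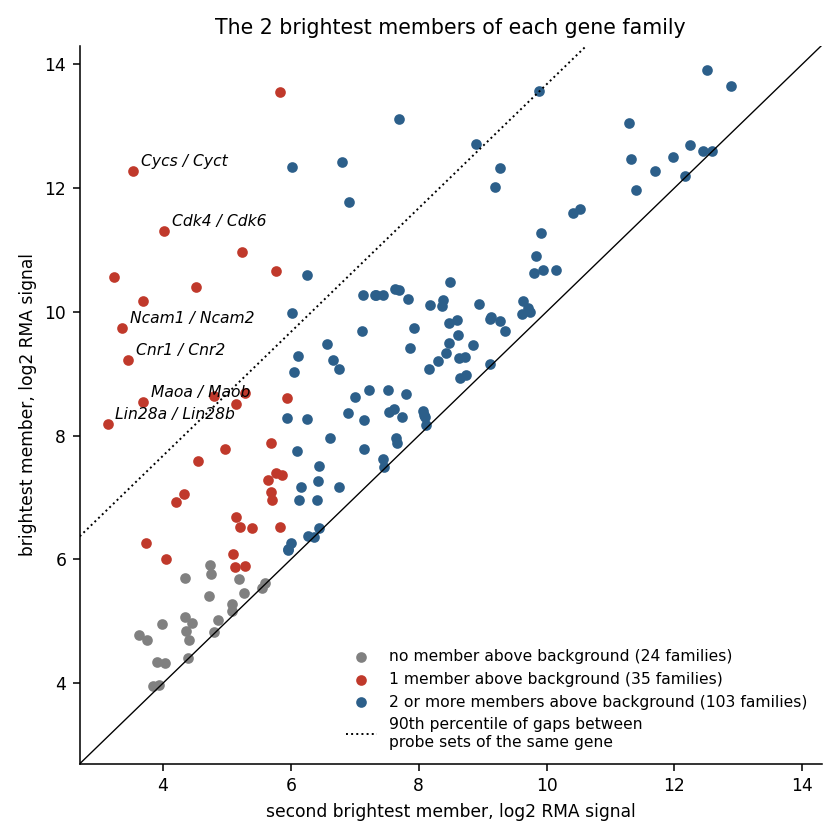
The mean log2 RMA signal of the brightest member (y axis) against that of the second brightest (x axis) of each of 162 gene families, over the 3 empty vector arrays; families with no member above background are grey, with 1 red (their second member is not above background) and with 2 or more blue. Points on the solid line are ties, and points above the dotted line have measured signals that differ by over 3.67 log2 units, the 90th percentile of gaps between probe sets of the same gene; Cycs, Cdk4, Ncam1, Cnr1, Maoa and Lin28a are labelled with their second member.

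The genes that varied most among the 3 arrays were mainly low on replicate 1. Vip had the largest SD, with a mean of 7.23 ± 1.08 and 5.99, 7.69 and 8.01 on replicates 1 to 3. Next came Prr9 (5.76, 7.29 and 7.35), Idi1 (7.86, 9.47 and 9.32), Marf1 (5.86, 7.31 and 7.39) and Nid1 (7.83, 9.12 and 9.37). Trps1 (7.28, 8.54 and 8.66), Msmo1 (9.38, 10.70 and 10.67), Daam2 (7.31, 8.53 and 8.52) and Id4 (5.70, 6.96 and 6.85) were also lowest there, while St13, a cochaperone, was highest there (11.15, 9.83 and 9.85). In each of these 10 genes replicates 2 and 3 lay closer to each other than to replicate 1.

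Idi1 and Msmo1 make cholesterol, and nearly the whole list of that pathway was lowest on replicate 1. All 15 of its measured genes were above background, led by Fdps (10.86 ± 0.51), Hmgcs1 (10.73 ± 0.66), Msmo1, Sqle (9.81 ± 0.45), Fdft1 (9.44 ± 0.52) and Cyp51 (9.26 ± 0.65). Their median was 8.29 on replicate 1 against 9.41 and 9.36 on the others, and 14 of 15 were lowest on replicate 1. Over all genes, 6037 of 18194 were lowest on that array and 8722 were highest on it. The median difference of replicate 1 from the mean of the other 2 was -0.85 log2 units for this list, -0.32 for cell cycle genes, of which 17 of 23 were lowest on replicate 1, and 0.04 for all genes. The medium could hold either of 2 sera, and the labels do not say which array had which, and the part of serum in this difference was not tested.

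Antigen presentation genes were partly called, 7 of 10 for MHC class I, led by B2m (10.13 ± 0.25) and Tapbp (9.11 ± 0.19), and 2 of 6 for class II. The classical heavy chains H2-D1 (8.39 ± 0.07) and H2-K1 (7.80 ± 0.05) were above background, and the peptide pump subunit Tap1 (5.01 ± 0.06) was not while Tap2 (6.60 ± 0.19) was. The class II transactivator Ciita (4.60 ± 0.06) was not above background.

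Promoters of genes above background held more CpG at the median. For 14453 genes with a RefSeq promoter the 250 upstream bases held a median of 17 CpG dinucleotides in genes above background and 6 in those not above, and a median GC content of 60.8% and 53.6%. From the dimmest to the brightest of 4 groups of genes, split evenly by signal, the median number of CpG was 5, 8, 16 and 18. The letters TATAAA on either strand were found in 5.79% of promoters of genes above background and 12.4% of the rest. TGACGTCA was found in 3.04% and 1.46%, and TGACG in 29.6% and 16.5%. Since both motifs with a CG are more frequent where CpG is, the difference in their shares and that in CpG cannot be told apart here.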

How the data were processed

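The labels' protocols describe a Trizol extraction of total RNA and biotin labelling of cRNA prepared from 6 ug. What the authors deposited is a table of log2 signals with 1 value for each probe set on each array. RMA is the tool named by the submitters' processing notes, and neither its version, nor the grouping of probes, nor a filter on dim signals is given in the sources used here. No further normalization was applied to the reported values. Probe sets were named from the platform annotation of 2016, which gave exactly 1 gene to 34958 of them, more than 1 gene to 932 and no entry to 9211; 9012 genes had more than 1 probe set. An array has no read depth, so precision is limited by there being 3 of them. With 1 group and no comparison, no test was run and no p-value is given.

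The members and lists were chosen with earlier results of these data known. They held 1210 symbols in 31 lists and 169 families, of which 1098 were matched to a gene, 1 through a synonym (Scn2a1 to Scn2a); the others were not analysed here. Names were taken from the markers, the 30 brightest genes, up to 6 brightest called members of each list with its defining uncalled members, the 2 brightest members of each family and the 10 genes with the largest SD, and not every family is described; which families were, other names, and the classes by symbol, were chosen after values were seen. Calls were computed in Python 3.11.15 with pandas 2.3.3 and numpy 2.4.6 and tested on simulated data; figures were drawn with matplotlib 3.10.9. Promoters were those first listed for a gene in a RefSeq table of build GRCm38.p6, without the 50 bases after the start. Alternatives were other thresholds, other rules for the probe set, quantile normalization and leaving out each array.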

Additional observations from a re-analysis of the deposited data

How the results depend on the processing

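Under 9 alternative settings the counts of genes and list members above background moved most with the threshold, and the leading family members with the rule for the probe set. With the threshold at the highest signal of the probe sets for an unspiked bacterial control transcript, 15706 genes were above background, 8 families had exactly 1 member above it and 271 list members were called, against 9006, 35 and 146. The 99th percentile gave 6388, 45 and 102, a threshold on the mean gave 9513, 30 and 154, and quantile normalization gave 9003, 34 and 145. Averaging probe sets gave 8685, 50 and 139, and probe sets of unique design gave 7442 of 16593 genes, 43 and 122. Leaving out each array in turn gave 9011 to 9478 genes, 31 to 35 families and 146 to 153 list members. Of the 138 leading family members, 98 led when probe sets were averaged, 105 with probe sets of unique design, where 25 families had another leader and 8 had fewer than 2 measured members, and 134 to 136 without an array. The 25 include families whose leader was not measured in that setting, such as those of Kcnh2 and F2r. Of the 278 named genes above background, 210 passed the 99th percentile, and 225 named signals moved by over 1 SD when probe sets were averaged. The cause of these changes, beyond the higher or lower threshold itself, was not tested. No paired analysis was possible because the values come from 1 group and from no test.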
